A study of Mus musculus with 10 samples.

Results

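The Slc25 genes encode the mitochondrial solute carriers. Most are proteins of the inner membrane that move metabolites, nucleotides, cofactors and ions between the cytosol and the matrix. Members were taken as the protein-coding genes of the deposited table whose symbol begins with Slc25a and a number, which gave 47 of the 54532 genes listed. Expression was measured by bulk RNA-seq of obstructed kidneys, 1 library per mouse, to ask how dimethyl malonate (DMM), a cell-permeable prodrug of the succinate dehydrogenase inhibitor malonate, altered the kidney after unilateral ureteral obstruction (UUO). Both groups were wild-type male C57BL/6 mice, 8 weeks old, with the left ureter tied, killed on day 14 after surgery. The PBS group (5 mice) received vehicle, and the DMM group (5 mice) received 40 mg/kg DMM into the peritoneum every other day. There was no unobstructed kidney, so every difference is between obstructed kidneys. Library totals were 16457495 to 18078777 counts with PBS and 15722527 to 19475833 with DMM.

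Most carriers exchange a solute on one side of the membrane for another solute on the other side, and their substrates link the citric acid cycle, amino acid breakdown, fatty acid oxidation and ATP export to the cytosol. Proximal tubule cells are rich in mitochondria and depend on oxidative metabolism, so the kidney is a tissue in which many carriers are abundant. The dicarboxylate carrier exchanges malate, succinate and malonate for phosphate, which places it close to the agent given here.

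3 libraries stood apart. The group means that the authors deposited give no weight to PBS replicate 3 or DMM replicate 1. The number of independent replicates stated in the methods of the study does not match these means, and the reason is not given in the sources used here. Both went against their groups in part. Summed CPM (counts scaled to a common library size by TMM) of 13 proximal tubule markers was 2648, 2744, 6242, 1260 and 2196 in PBS replicates 1 to 5 and 1984, 5239, 6373, 5395 and 7635 in DMM replicates 1 to 5. PBS replicate 3 lay inside the range of DMM replicates 2 to 5, and DMM replicate 1 lay inside the range of the other PBS libraries. Summed CPM of 10 interferon response genes was 3366, 1950, 2367, 3351 and 3204 in the PBS libraries and 2450, 333, 292, 283 and 242 in the DMM libraries. For these genes PBS replicate 3 was at the level of its own group, while DMM replicate 1 was again at the PBS level. DMM replicate 4 differed in another way, since its deviations from the mean library correlated with GC content at r = -0.456 and with log2 transcript length at r = 0.385 across 16491 genes, against r of 0.033 to 0.233 and -0.182 to -0.028 in the other libraries. Genes are not independent replicates, so these r values only describe the libraries. Log2 fold changes of the genes named below are therefore given over all 10 libraries and over the 8 libraries of the authors' means (4 mice per group), and calls that change without DMM replicate 4 are given over those 8 without it. The p-values over 8 libraries do not account for the choice of libraries.

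Of the 47 carriers, 42 passed the filter on low counts in both sets, and Slc25a2, Slc25a18, Slc25a31, Slc25a41 and Slc25a54 did not, their highest count in a library being 18. Over all 10 libraries, the quasi-likelihood test of edgeR with Benjamini-Hochberg adjustment over 16505 genes called 0 carriers when a call required more than a 1.5-fold change together with an adjusted p below 0.05, and it called 0 genes at all (0% of those tested). At an unadjusted p under 0.05 with the same fold change, 0 carriers were higher and 1, Slc25a22, was lower, where 1.91% of all tested genes were higher and 4.11% lower. DESeq2 called 0 carriers over the 10 libraries, and 14 higher and 36 lower of 30751 genes. Over the 8 libraries, 6 of 42 carriers were called higher with DMM, where 2.73% of 16550 tested genes were, and 1 of 42 was called lower, where 3.56% were. The 6 were Slc25a13, Slc25a15, Slc25a16, Slc25a21, Slc25a23 and Slc25a48, and the 1 was Slc25a22. The median log2 fold change of the tested carriers was 0.11 over 10 libraries and 0.22 over 8, beside 0.02 and 0.02 for all tested genes, and 28 of 42 carriers were above 0 in each set, where 52.8% of all tested genes were over 10 libraries and 52.4% over 8. Against the PBS mean of the 8 libraries, the median carrier of a single library stood at 0.08, 0.02, 0.36, -0.11 and -0.01 in log2 CPM in PBS replicates 1 to 5 and at -0.04, 0.20, 0.32, -0.18 and 0.36 in DMM replicates 1 to 5. The groups overlapped in both sets, and the SD of these medians between mice of a group was 0.209 over 10 libraries and 0.185 over 8. For single carriers, the groups did not overlap in CPM over 8 libraries for 11 carriers with DMM above PBS, where 9.45% of tested genes were so, and for 2 with DMM below, where 10.6% were. Over 10 libraries this held for 0 carriers above, where 0.794% of tested genes were so, and 1 below, where 1.16% were.

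The 8-library calls depended on single libraries. Without DMM replicate 4, 13 carriers were called higher, where 6.71% of 16828 tested genes were, and 1 lower, where 7.61% were. The 7 carriers added were Slc25a5, Slc25a10, Slc25a17, Slc25a30, Slc25a34, Slc25a39 and Slc25a42. In the same fit 35 of 42 carriers were above 0 in log2 fold change, where 48.7% of all tested genes were. The median was 0.30 for the carriers and -0.01 for all tested genes. Leaving out any other library of the 8 lowered the count of carriers and that of all tested genes. Without a DMM library, 2 carriers were higher without replicate 2 (2.23% of tested genes), 1 without replicate 3 (1.10%) and 1 without replicate 5 (0.995%). Without a PBS library, 2 were higher without replicate 1 (1.34%), 1 without replicate 2 (1.17%), 1 without replicate 4 (0.952%) and 1 without replicate 5 (0.774%). In these 7 fits 0 carriers were lower, where 1.63% to 3.38% of tested genes were. Of the 8 fits that left out 1 of the 8 libraries, Slc25a15 was called in 8, Slc25a13 and Slc25a48 in 2, and Slc25a16, Slc25a21, Slc25a22 and Slc25a23 in 1. Scaling by library size alone left 1 higher and 1 lower call, and it moved the median of all tested genes from 0.02 to -0.09. The libraries left out of the 8 lay on the other side for most called carriers. PBS replicate 3 was nearer to the DMM mean of log2 CPM than to the PBS mean for 6 of the 6 carriers called higher, and DMM replicate 1 was nearer to the PBS mean for 7 of the 7 called carriers. Over all 42 tested carriers these counts were 25 and 36.

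**Figure D1:**
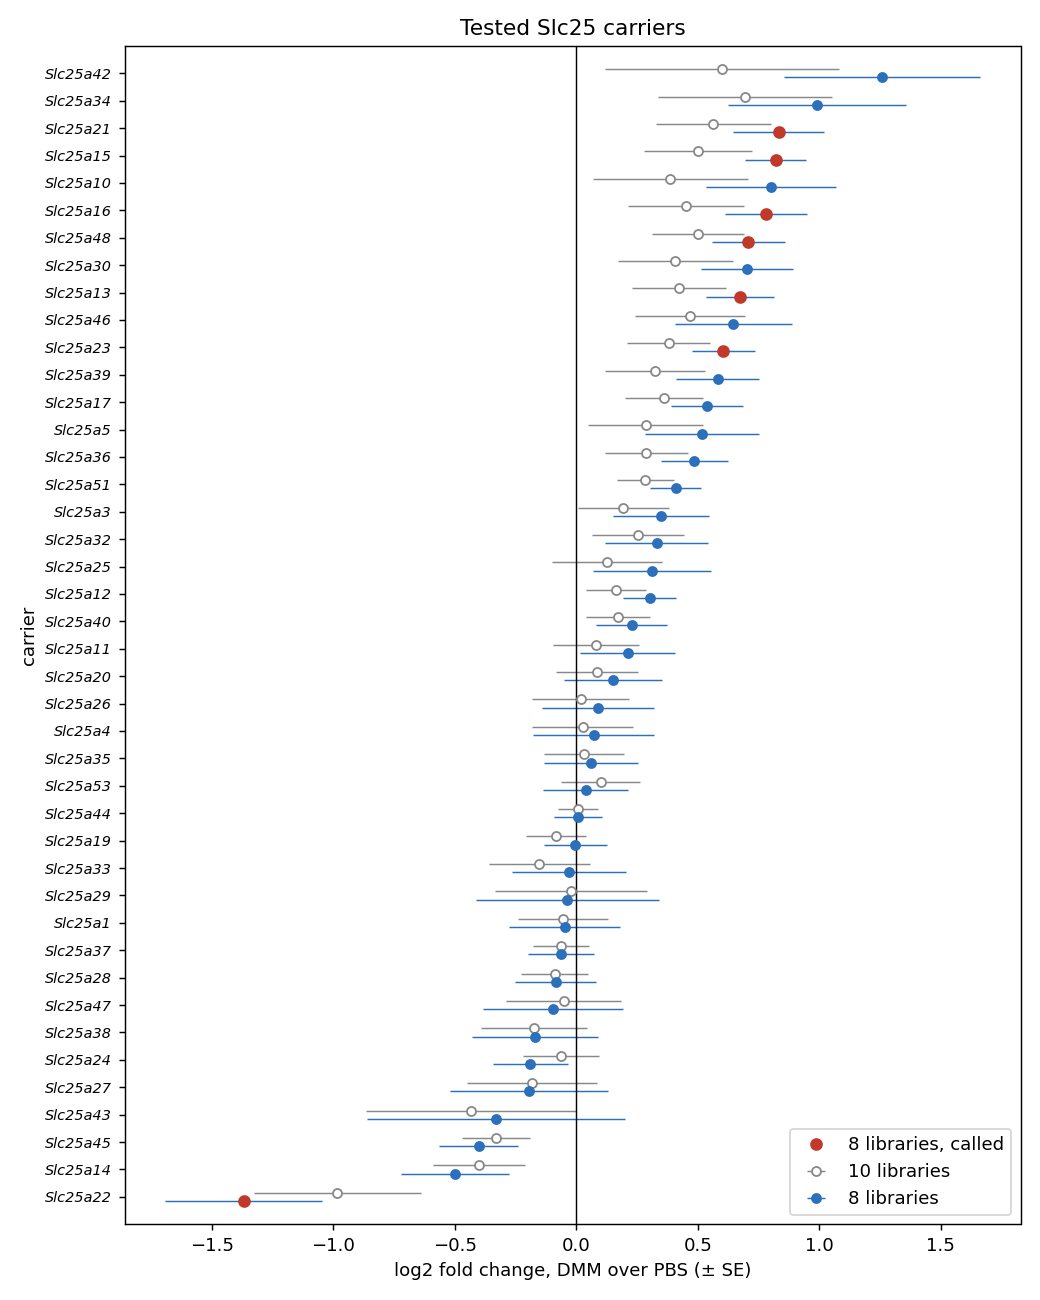
Log2 fold change of DMM over PBS (horizontal axis, with SE) for the 42 tested carriers, ordered by the 8-library value, with open circles for 10 libraries, filled circles for 8 libraries and red circles for the 7 carriers called over 8. Slc25a22 was lowest in both sets, and Slc25a42 had the highest 8-library value, 1.26, without being called.

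Levels were compared between carriers by FPKM, the authors' values per kilobase of gene length. The highest median FPKM over the 10 libraries was that of Slc25a5, an ADP/ATP carrier, at 189. It was followed by Slc25a4, another ADP/ATP carrier, at 83.7, by the phosphate carrier Slc25a3 at 75.4, by the glutathione carrier Slc25a39 at 72.6 and by the oxoglutarate carrier Slc25a11 at 40.5. The ranges of Slc25a4, Slc25a3 and Slc25a39 over libraries overlapped, from 42.3 to 104, 56.9 to 108 and 57.02 to 117 FPKM, so their order is not separated. The range of Slc25a11, 28.4 to 54.4 FPKM, overlapped that of Slc25a4. It also overlapped that of Slc25a1, the next carrier (median 39.5, range 19.8 to 44.9 FPKM), so the place of Slc25a11 is not separated either. Slc25a5 did not overlap with any of them, with a lowest value of 142 FPKM. Of the carriers called over 8 libraries, Slc25a23 had the highest median at 16.1 FPKM and Slc25a21 the lowest at 1.24 FPKM. The range of Slc25a23 overlapped those of Slc25a13, Slc25a15 and Slc25a16, and that of Slc25a21 overlapped that of Slc25a22, so neither end of this order is separated.

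The 4 carriers of di- and tricarboxylates and oxoacids comprise the dicarboxylate carrier Slc25a10, the oxoglutarate carrier Slc25a11, the citrate carrier Slc25a1 and the oxodicarboxylate carrier Slc25a21, which takes part in lysine and tryptophan breakdown. Of these, 0 were called over 10 libraries and 1, Slc25a21, was called higher over 8. CPM of Slc25a21 (ENSMUSG00000035472, chr12:56712634-57197472, minus strand) was 5.35, 4.24, 6.86, 5.16 and 4.35 in PBS replicates 1 to 5 and 4.32, 8.004, 8.56, 7.01 and 10.5 in DMM replicates 1 to 5. DMM replicates 2 to 5 lay above every PBS library, and DMM replicate 1 was in the PBS range. The log2 fold change was 0.56 (SE 0.24, adjusted p = 0.430 by edgeR) over 10 libraries and 0.83 (SE 0.19, adjusted p = 0.0315 by edgeR) over 8. Pax9, on the opposite strand, overlaps Slc25a21, and since the strand setting of the counting is not given in the sources used here, reads of both genes may not be separated. CPM of Slc25a10 was 77.6, 88.2, 157, 61.3 and 74.1 in the PBS libraries and 73.8, 126, 154, 67.7 and 177 in the DMM libraries. PBS replicate 3 was the second highest of all 10, and DMM replicates 1 and 4 were in the range of the other PBS libraries. Its log2 fold change was 0.39 over 10 libraries and 0.80 over 8 (adjusted p = 0.117 by edgeR), which missed the threshold, and 1.02 without DMM replicate 4 (adjusted p = 0.00115 by edgeR). DESeq2 called Slc25a10 higher over the same 8 libraries (adjusted p = 0.0494 by DESeq2). Slc25a1 and Slc25a11 had 10-library values of -0.06 and 0.08 and 8-library values of -0.05 and 0.21 in log2 fold change, and neither was called. Without DMM replicate 4 the 8-library values became 0.16 and 0.38, so the sign of Slc25a1 changed, and again neither was called. Rnf167 lies over Slc25a11 on the opposite strand.

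Of 9 amino acid carriers, 7 were tested, 2 were called higher over 8 libraries and 1 lower. Slc25a15 (ENSMUSG00000031482, chr8:22375551-22398597, minus strand), the ornithine carrier of the urea cycle, had a CPM of 53.2, 54.7, 79.4, 40.01 and 45.3 in PBS replicates 1 to 5 and 44.6, 83.9, 82.2, 91.5 and 83.7 in DMM replicates 1 to 5. DMM replicates 2 to 5 lay above every PBS library, the closest being PBS replicate 3, while DMM replicate 1 lay among the lowest PBS values. Mean CPM was 54.5 ± 15.2 (SD, n = 5) with PBS and 77.2 ± 18.6 (SD, n = 5) with DMM. The log2 fold change was 0.50 (SE 0.22, adjusted p = 0.449 by edgeR) over 10 libraries and 0.82 (SE 0.12, adjusted p = 0.00757 by edgeR) over 8. Slc25a13 (ENSMUSG00000015112, chr6:6041218-6217173, minus strand) encodes citrin, the aspartate/glutamate carrier that feeds the malate-aspartate shuttle and the urea cycle. Its CPM was 48.9, 48.6, 70.9, 40.6 and 53.6 with PBS and 46.2, 64.3, 86.99, 69.6 and 85.1 with DMM. PBS replicate 3 exceeded DMM replicates 1, 2 and 4, and without the 2 libraries left out by the authors the groups did not overlap. Its log2 fold change was 0.42 over 10 libraries (SE 0.19, adjusted p = 0.458 by edgeR) and 0.67 over 8 (SE 0.14, adjusted p = 0.0244 by edgeR). The related carrier Slc25a12, or aralar, had values of 0.16 and 0.30 and was not called.

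Slc25a22 (ENSMUSG00000019082, chr7:141429744-141437892, minus strand), a glutamate carrier, was the carrier with the lowest log2 fold change in both sets. Its CPM was 46.7, 44.7, 38.2, 54.7 and 44.6 in PBS replicates 1 to 5 and 41.97, 23.9, 21.2, 7.07 and 21.6 in DMM replicates 1 to 5. DMM replicates 2 to 5 lay below every PBS library, with DMM replicate 4 the lowest, and DMM replicate 1 lay inside the PBS range. Mean CPM was 45.8 ± 5.93 (SD, n = 5) with PBS and 23.2 ± 12.4 (SD, n = 5) with DMM. The log2 fold change was -0.98 (SE 0.34, adjusted p = 0.387 by edgeR) over 10 libraries, -1.37 (SE 0.32, adjusted p = 0.0381 by edgeR) over 8 and -1.10 (adjusted p = 0.000112 by edgeR) without DMM replicate 4. PBS replicate 3 was nearer to the PBS mean for Slc25a22, whereas it was nearer to the DMM mean for each carrier called higher.

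**Figure D2:**
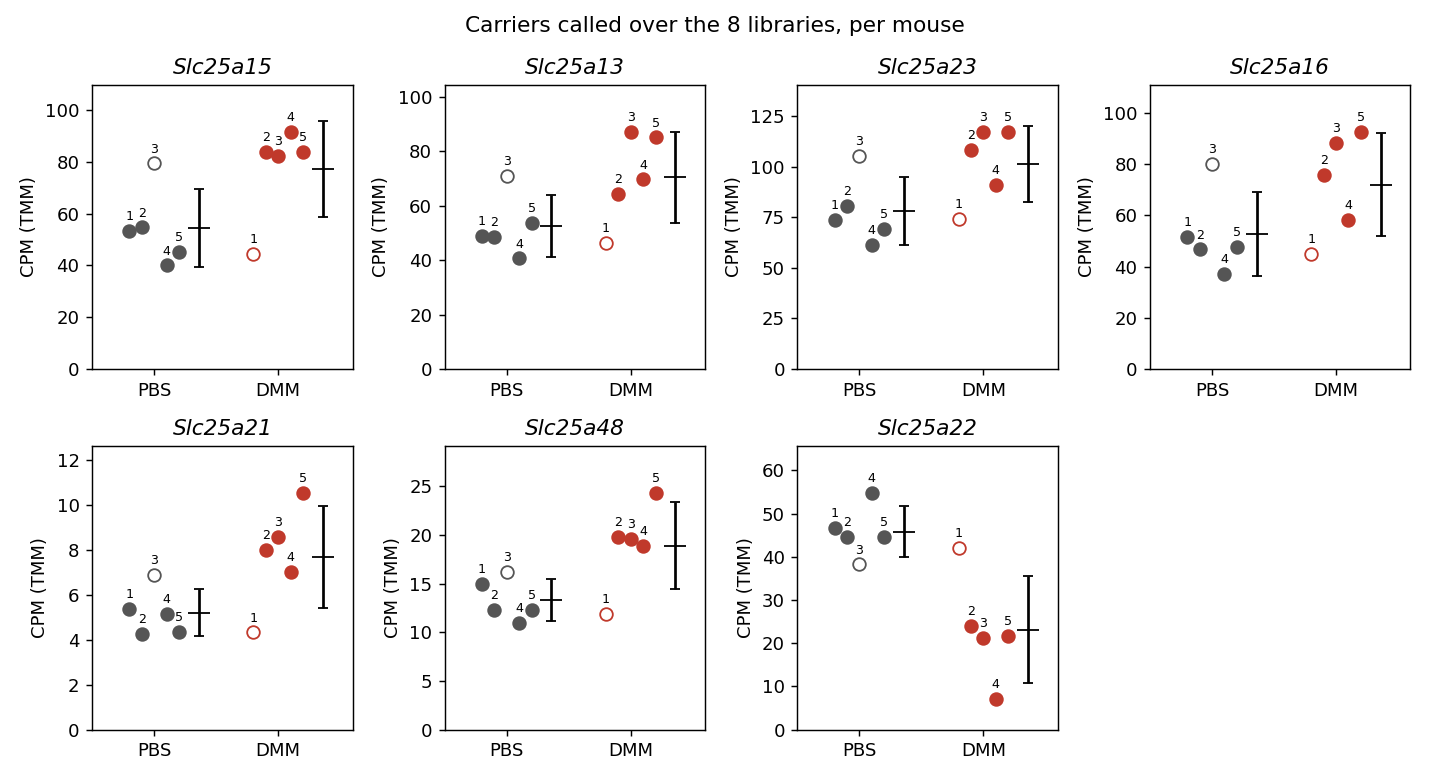
CPM (TMM, vertical axis from 0) of the 7 carriers called over 8 libraries, 1 point per mouse with its replicate number, PBS in gray and DMM in red, open circles for the 2 libraries left out of the 8, and bars for mean ± SD of all 5. For Slc25a15 DMM replicates 2 to 5 sit between 82.2 and 91.5, and for Slc25a22 between 7.07 and 23.9.

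Slc25a20 carries acylcarnitines into the matrix for fatty acid oxidation. Its log2 fold change was 0.08 over 10 libraries and 0.15 over 8, and it was not called in either set. Without DMM replicate 4 the 8-library value became 0.33 (adjusted p = 0.0164 by edgeR), below the fold change needed for a call. Of 4 enzymes of the carnitine shuttle, 3 were tested and 2 were called higher over 8 libraries: the palmitoyltransferase Cpt2 with a log2 fold change of 0.83 (adjusted p = 0.0491 by edgeR) and the carnitine acetyltransferase Crat with 0.71 (adjusted p = 0.0178 by edgeR). Over 10 libraries their values were 0.47 and 0.47, with 0 called. The third tested enzyme, Cpt1a, had 0.37 over 10 libraries (adjusted p = 0.419 by edgeR) and 0.54 over 8 (adjusted p = 0.0317 by edgeR). The 8-library value of Cpt1a was below the fold change needed for a call.

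Adenine nucleotide and phosphate carriers comprise 8 members, of which 6 were tested and 1, Slc25a23, was called higher over 8 libraries. Slc25a23 (ENSMUSG00000046329, chr17:57043711-57059863, minus strand) is a calcium-regulated exchanger of ATP-Mg and phosphate. Its CPM was 73.6, 80.8, 105, 61.4 and 69.2 with PBS and 74.1, 109, 117, 91.03 and 117 with DMM. PBS replicate 3 lay above DMM replicates 1 and 4, and over 8 libraries the groups did not overlap. The log2 fold change was 0.38 (SE 0.17, adjusted p = 0.456 by edgeR) over 10 libraries and 0.60 (SE 0.13, adjusted p = 0.0264 by edgeR) over 8. Crb3 lies over Slc25a23 on the opposite strand. CPM of Slc25a5 was 324, 302, 449, 279 and 296 with PBS and 292, 424, 523, 237 and 537 with DMM. DMM replicate 4 was the lowest of all 10 libraries and PBS replicate 3 was above DMM replicates 1, 2 and 4. Its log2 fold change was 0.29 over 10 libraries (adjusted p = 0.630 by edgeR), 0.52 over 8 (adjusted p = 0.241 by edgeR) and 0.72 (adjusted p = 0.000922 by edgeR) without DMM replicate 4. Its pseudogene Slc25a5-ps had at most 10 counts in a library, beside at least 3928 for Slc25a5. Slc25a3 and Slc25a4 had 10-library values of 0.19 and 0.03 and 8-library values of 0.35 and 0.07 in log2 fold change, and neither was called. Without DMM replicate 4 the 8-library values became 0.52 and 0.30 (adjusted p = 0.00164 and 0.00712 by edgeR). Both were below the fold change needed for a call.

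All 7 carriers of coenzymes and vitamins in the table were tested, and 1, Slc25a16, was called higher over 8 libraries. Slc25a16 (ENSMUSG00000071253, chr10:62920633-62946498, plus strand) has been linked to coenzyme A transport. Its CPM was 51.6, 46.7, 80.3, 37.03 and 47.8 with PBS and 45.1, 75.9, 88.2, 58.2 and 92.5 with DMM. PBS replicate 3 exceeded DMM replicates 1, 2 and 4, and over 8 libraries the groups did not overlap. For DMM over PBS the log2 fold change was 0.45 (SE 0.24, adjusted p = 0.513 by edgeR) over 10 libraries and 0.78 (SE 0.17, adjusted p = 0.0282 by edgeR) over 8. Slc25a42, a carrier of coenzyme A and adenine nucleotides, had a CPM of 11.8, 14.4, 35.4, 9.79 and 12.4 with PBS and 11.2, 25.2, 37.3, 9.30 and 44.01 with DMM. DMM replicate 4 was the lowest of all 10 libraries, and DMM replicates 2, 3 and 5 lay above every PBS library except replicate 3, which exceeded DMM replicate 2. Its log2 fold change was 0.60 over 10 libraries, 1.26 over 8 (adjusted p = 0.104 by edgeR) and 1.55 without DMM replicate 4 (adjusted p = 0.000761 by edgeR). DESeq2 called Slc25a42 higher over the same 8 libraries (adjusted p = 0.0206 by DESeq2). Slc25a17, which resides in peroxisomes and carries coenzyme A and related cofactors, had a log2 fold change of 0.36 over 10 libraries (adjusted p = 0.453 by edgeR), 0.54 over 8 (adjusted p = 0.0632 by edgeR) and 0.64 without DMM replicate 4 (adjusted p = 0.00174 by edgeR).

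The glutathione carrier Slc25a39 had a log2 fold change of 0.32 over 10 libraries (adjusted p = 0.552 by edgeR), 0.58 over 8 (adjusted p = 0.0779 by edgeR) and 0.72 without DMM replicate 4 (adjusted p = 0.000859 by edgeR). The iron carriers Slc25a37 and Slc25a28, or mitoferrins, were not called, with 10-library values of -0.06 and -0.09 and 8-library values of -0.06 and -0.09 in log2 fold change. Without DMM replicate 4 the 8-library values became -0.05 and 0.06. Among the relatives of the uncoupling proteins, Slc25a30, known as the kidney mitochondrial carrier, had a CPM of 106, 89.5, 149, 75.2 and 103 with PBS and 85.1, 151, 167, 105 and 184 with DMM. DMM replicates 2, 3 and 5 were the 3 highest libraries, and DMM replicate 4 was in the PBS range. Its log2 fold change was 0.41 over 10 libraries (adjusted p = 0.533 by edgeR), 0.70 over 8 (adjusted p = 0.0592 by edgeR) and 0.84 without DMM replicate 4 (adjusted p = 0.00136 by edgeR). DESeq2 called Slc25a30 higher over the same 8 libraries (adjusted p = 0.0142 by DESeq2). Slc25a14 had a CPM of 6.25, 6.003, 6.07, 6.76 and 7.59 with PBS and 5.93, 5.48, 5.16, 3.02 and 5.17 with DMM. It was the 1 carrier of 47 whose DMM libraries all lay below its PBS libraries over the full 10, where 1.16% of tested genes did, and it was not called (log2 fold change -0.40, adjusted p = 0.480 by edgeR, and -0.50 over 8 libraries, adjusted p = 0.234 by edgeR). For Slc25a27 the log2 fold change was -0.18 over 10 libraries, -0.20 over 8 and 0.02 over those 8 without DMM replicate 4. Across the fits that left out 1 of the 8 libraries it ran from -0.35 to 0.03, so its sign was not settled.

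Of 9 carriers placed here without a settled substrate, 8 were tested and 1, Slc25a48 (ENSMUSG00000021509, chr13:56438355-56474239, plus strand), was called higher over 8 libraries. Its CPM was 14.9, 12.3, 16.2, 10.96 and 12.3 with PBS and 11.9, 19.8, 19.6, 18.8 and 24.3 with DMM. DMM replicates 2 to 5 lay above every PBS library, and DMM replicate 1 was in the PBS range. In log2 fold change it was 0.50 (SE 0.19, adjusted p = 0.397 by edgeR) over 10 libraries and 0.71 (SE 0.15, adjusted p = 0.0256 by edgeR) over 8. Slc25a34 had the highest 10-library value of the family, 0.69 (SE 0.36), with a CPM of 7.52, 6.53, 10.3, 4.73 and 9.12 with PBS and 6.42, 10.1, 18.4, 6.52 and 20.4 with DMM. DMM replicates 3 and 5 stood above the other 8 libraries. It was not called over 8 libraries, at 0.99 (adjusted p = 0.155 by edgeR), and was called without DMM replicate 4, at 1.23 (adjusted p = 0.00950 by edgeR). Slc25a43 and Slc25a45 had 10-library values of -0.43 and -0.33 and 8-library values of -0.33 and -0.40 in log2 fold change, and neither was called. The 16 tested carriers not named by the rule for named genes ranged from -0.17 to 0.47 in log2 fold change over 10 libraries and from -0.19 to 0.65 over 8, with 0 called.

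Members of the superfamily under other symbols were also counted. Of Ucp1, Ucp2, Ucp3, Mtch1 and Mtch2, 3 were tested and 0 were called in either set. Of 29 genes of other mitochondrial transport and carrier import, 29 were tested and 3 were called higher over 8 libraries: the pyruvate carrier subunit Mpc1 (0.75, adjusted p = 0.0130 by edgeR), the serine transporter Sfxn1 (0.79, adjusted p = 0.0346 by edgeR) and Sfxn5 (0.62, adjusted p = 0.0268 by edgeR). Over 10 libraries their log2 fold changes were 0.49, 0.54 and 0.34 (adjusted p = 0.408, 0.428 and 0.531 by edgeR). Without DMM replicate 4 the values of Sfxn1 and Sfxn5 were 0.58 and 0.58, below the fold change needed, and neither was called, while the pyruvate carrier subunit Mpc2 was called higher (0.69, adjusted p = 0.00471 by edgeR) and Mcub, a subunit of the calcium uniporter, lower (-0.79, adjusted p = 0.0284 by edgeR). Mpc2 and Mcub had 10-library values of 0.27 and -0.62 and 8-library values of 0.50 and -0.88 in log2 fold change. Sfxn1 had its highest CPM in DMM replicate 4, at 236. Of 4 succinate dehydrogenase subunits, 4 of malate-aspartate shuttle enzymes, 2 tested enzymes of the urea and ornithine list, 3 of iron-sulfur and heme metabolism and Nmnat3, 0 were called over 8 libraries. Otc, on the urea and ornithine list, had at most 4 counts in a library and was not tested. Without DMM replicate 4, the succinate dehydrogenase subunits Sdha (0.60, adjusted p = 0.00190 by edgeR) and Sdhb (0.65, adjusted p = 0.00188 by edgeR), the malate dehydrogenase Mdh1 (0.80, adjusted p = 0.00279 by edgeR) and Alas1 of heme synthesis (0.59, adjusted p = 0.00321 by edgeR) were called higher. In the same order their log2 fold changes were 0.27, 0.32, 0.27 and 0.22 over 10 libraries and 0.47, 0.58, 0.64 and 0.39 over 8. The 8-library value of Sdhb, 0.584 (adjusted p = 0.0331 by edgeR), lay just below the log2 fold change of 0.585 needed for a call. Of 2 citrate export enzymes, the malic enzyme Me1 was called higher over 8 libraries (0.82, adjusted p = 0.0148 by edgeR) and not over 10 (0.42, adjusted p = 0.550 by edgeR). Together, 6 of 51 tested genes on these lists were called higher and 0 lower over 8 libraries, where 2.73% and 3.56% of all tested genes were, 9 higher and 1 lower without DMM replicate 4, where 6.71% and 7.61% were, and 0 over 10, where 0% were.

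Markers of several cell types were called over 8 libraries, while over 10 libraries 0 genes of any marker list were. Of all tested genes, 2.73% were called higher and 3.56% lower over 8 libraries. Without DMM replicate 4 these shares were 6.71% and 7.61%, so calls rose among all genes as well. DMM replicate 4 had the lowest median carrier of all libraries, although its proximal tubule sum was above that of each PBS library except replicate 3. Of 13 proximal tubule markers, 7 were called higher over 8 libraries and 12 without DMM replicate 4, with 0 lower. Their median log2 fold change was 0.76 over 10 libraries and 1.45 over 8, the most abundant was Lrp2, and none was at 0. Of 6 fibroblast markers, 2 were called lower, 4 without DMM replicate 4, with Col3a1 the most abundant and a median of -0.55 over 10 libraries and -1.04 over 8. Of 6 macrophage markers, 2 were lower, 5 without DMM replicate 4, with C1qb the most abundant and medians of -0.79 and -1.10. Summed fibroblast CPM was 6143, 9235, 4742, 13607 and 8647 in PBS replicates 1 to 5 and 10711, 4920, 3384, 6821 and 3787 in DMM replicates 1 to 5. Summed macrophage CPM was 1437, 1295, 1130, 1322 and 1529 with PBS and 1211, 836, 705, 503 and 716 with DMM. The summed proximal tubule level was higher in PBS replicate 3 and DMM replicates 2 to 5 than in the other libraries. In DMM replicate 4 Lrp2 made up 2504 of that sum, and the other 12 markers summed to 2891 CPM there, beside 4326, 5184 and 6358 in DMM replicates 2, 3 and 5 and 1040 to 2295 in PBS replicates 1, 2, 4 and 5. Over 8 libraries 1 of 3 loop of Henle markers, 2 of 2 tested distal tubule markers and 1 of 4 tested collecting duct markers were called higher, and 1 of 6 T cell markers lower. Without DMM replicate 4 these counts were 3, 2, 3 and 3. Of 5 tested red cell markers, 0 were called over 8 libraries and 5 were called higher without DMM replicate 4, with Hbb-bs the most abundant. The median log2 fold change of these markers was 1.58 over 10 libraries, 1.78 over 8 and 1.15 without DMM replicate 4. Their summed CPM was 136, 229, 230.4, 157 and 152 with PBS and 288, 216, 593, 790.5 and 276 with DMM, highest in DMM replicates 3 and 4. Of the podocyte, endothelium, B cell, neutrophil, adipocyte and tubular injury lists, 0 genes were called in any of these sets. Pvalb, Avpr2, Lep and Cidea were under 1 CPM in each library. Of 10 interferon response genes, 10 were called lower over 8 libraries and 0 over 10, with Irf7 the most abundant and medians of -1.90 over 10 libraries and -3.43 over 8. The part of cell composition or of the interferon response in the carrier results was not tested. Fewer cells of a type and less RNA per cell cannot be told apart in these bulk libraries.

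**Figure D3:**
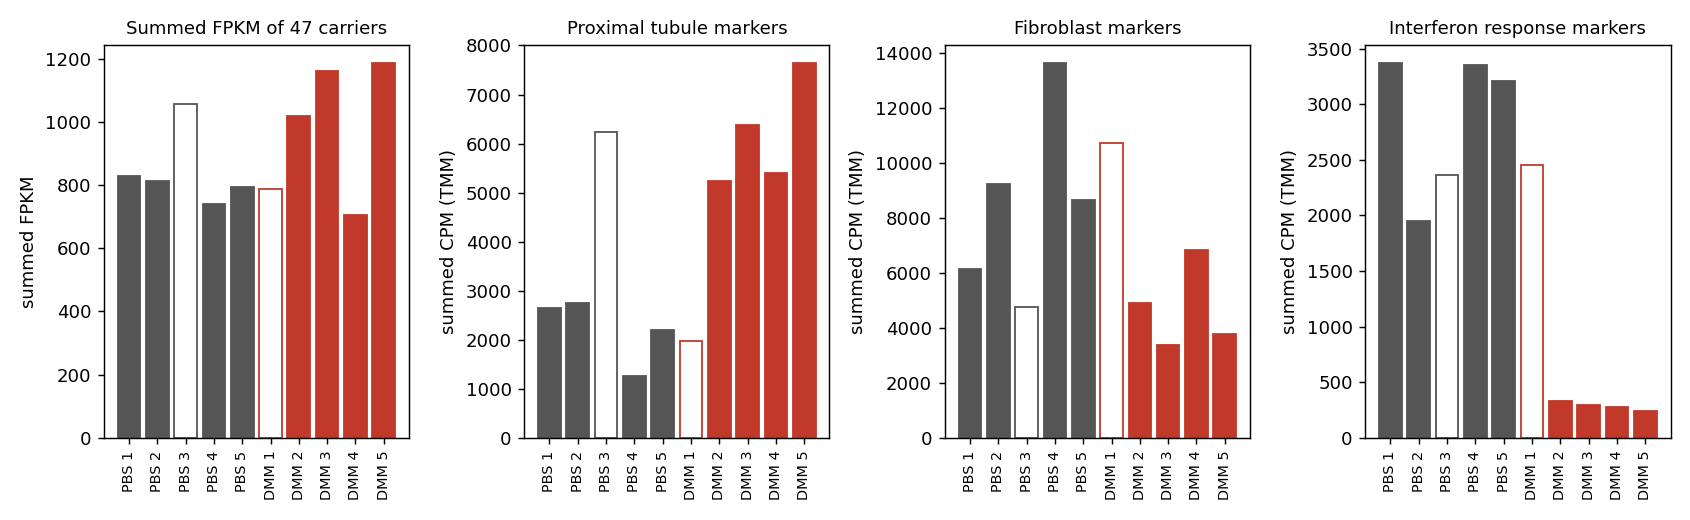
Summed FPKM of the 47 carriers (left) and summed CPM of proximal tubule, fibroblast and interferon response markers (vertical axes from 0) in each library, PBS in gray and DMM in red, with open bars for the 2 libraries left out of the 8. PBS replicate 3 reached 1057 FPKM, between DMM replicates 2 and 3, and DMM replicate 4 had the lowest sum, 704 FPKM.

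RefSeq promoter entries (GRCm38.p6) matched 36 of the 47 carriers, with 46 start sites. The 250 bases before each start were searched on both strands for AGGTCA, a core motif of nuclear receptors, and TCAAGGTCA, the site of estrogen-related receptors, which contains it. AGGTCA was in 8.7% of carrier promoters and in 14% of 32851 promoters, and TCAAGGTCA in 0% and 0.387%. Neither was in a promoter of the 7 carriers called over 8 libraries, which says only that these letters are not in that window. The sequences before 1 of the 2 listed starts of Slc25a15 (chr8:22398622-22398871, minus strand), the one farther upstream, shown because the call of this gene held in each fit without 1 of the 8 libraries, and before the start of Slc25a13 (chr6:6217174-6217423, minus strand), its partner in the urea cycle, are given 5′ to 3′ in lower case, with no capitals because no searched motif was found.
Slc25a15: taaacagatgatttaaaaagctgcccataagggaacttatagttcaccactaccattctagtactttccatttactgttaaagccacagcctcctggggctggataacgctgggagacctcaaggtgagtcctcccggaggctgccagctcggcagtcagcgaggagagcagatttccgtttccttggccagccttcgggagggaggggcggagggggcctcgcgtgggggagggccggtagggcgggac
Slc25a13: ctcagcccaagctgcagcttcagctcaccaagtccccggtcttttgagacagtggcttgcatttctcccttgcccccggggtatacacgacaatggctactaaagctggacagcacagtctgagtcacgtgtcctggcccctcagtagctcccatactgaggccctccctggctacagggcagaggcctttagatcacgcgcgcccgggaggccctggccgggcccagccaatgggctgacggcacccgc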

How the data were processed

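Kidney RNA of 10 mice was sequenced. Per the labels' processing notes the submitters used HISAT2 2.0.5, and reads were aligned to mm10. The counting tool, annotation and strand setting are not given in the sources used here. The authors deposited raw read counts per gene, FPKM (fragments scaled by gene length and an adjusted library size) per library, and a group mean signal, counts divided by size factors, which served here to find the libraries with a weight of 0. The adjusted library size behind FPKM ran from 0.86 (DMM replicate 4) to 1.054 (PBS replicate 1) times the total count. The deposited table also holds the authors' comparison (log2 fold change, p and adjusted p), which was not used.

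Counts were tested with edgeR 4.0.16 (TMM, filterByExpr, quasi-likelihood, R 4.3.3), with Benjamini-Hochberg adjustment over all tested genes, and a call required more than a 1.5-fold change together with an adjusted p below 0.05. DESeq2 1.42.0 was an alternative, beside other scalings, filters, the replicate block and leaving out each library. CPM was computed with TMM over 10 libraries. The fit was tested on simulated counts in which 200 genes changed 3-fold. It recovered 178 of them with 9 false calls for 10 libraries, and 162 with 10 false calls for 8. The simulation had no smaller changes and no libraries made to stand apart, so it does not bear on the carrier calls. GC content and transcript length came from GENCODE M21, and 99.8% of genes had values.

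Members and lists were chosen with earlier results of these data known. Named were carriers called in either set, the 5 largest rises and 5 largest falls over 10 libraries, the 5 highest in median FPKM, 13 carriers picked for their substrates, and listed partner genes that were called. Cpt1a, measured by the study in a tubular cell line, and the untested Otc were named as well. The replicate numbers are not known to pair mice.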

Additional observations from a re-analysis of the deposited data

Results flagged for a closer look

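In 6 of 52 groups of 5 libraries formed by the 26 named carriers, 1 library lay far from the other 4, with a gap to its nearest neighbour above 0.71 of the group's range. Chance gives about 1 in 20 groups that are independent and not selected, which these are not: carriers were named in part for calls in a set without PBS replicate 3 and DMM replicate 1, and all of them share the same libraries. The count is therefore not read against that rate. PBS replicate 3 was far above the other PBS libraries for Slc25a5 (449 CPM), Slc25a10 (157 CPM) and Slc25a42 (35.4 CPM). DMM replicate 1 was far below the other DMM libraries for Slc25a15 (44.6 CPM). DMM replicate 4 was far below the other DMM libraries for Slc25a1 (43.4 CPM) and Slc25a14 (3.02 CPM). These are the 3 libraries described above as standing apart.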

How the results depend on the processing

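Over 10 libraries, 0 carriers were called higher and 0 lower with edgeR under RLE size factors, library size alone, no filter on low counts, a CPM of at least 1 in 4 libraries, protein-coding genes alone and the replicate block, and with DESeq2 (all tested genes 0 in each edgeR setting, and 14 higher and 36 lower with DESeq2). At an unadjusted p under 0.05 the count lower was 1, and leaving out 1 library gave 0 to 1 lower, the 1 being Slc25a22 without DMM replicate 1 (all tested genes 50 higher and 436 lower, and 0 in each other such fit), and 0 higher.

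Over 8 libraries, the 6 higher and 1 lower calls became 1 and 1 with library size alone (all tested genes 276 higher and 700 lower, beside 452 and 590), 3 and 1 with no filter on low counts (409 and 549 of 30191 genes), 9 and 1 with DESeq2 (749 and 911 of 30116), and 11 and 1 at an unadjusted p under 0.05 (1067 and 1198 of 16550). Leaving out 1 library gave 1 to 13 higher and 0 to 1 lower (all tested genes 131 to 1129 and 276 to 1281). Each of those fits has fewer mice. The cause of the other changes was not tested.

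The replicate block left 0 higher and 0 lower calls over 8 libraries, among the carriers and among all 16550 tested genes. Over these libraries the replicate numbers 1 and 3 occur in 1 group only. The blocked fit therefore compares few libraries, and its loss of every call decides nothing. The numbers were not found to pair the samples: the deviations of same-numbered libraries correlated at r of -0.061, 0.079, 0.343, 0.126 and -0.223 across genes, and the DMM libraries that correlated best with the PBS library of their own number were replicates 3 and 4.

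An adjustment of each library for GC and length, chosen after seeing the data, was run in 2 forms. The form run first did not centre the offsets, so that the libraries were scaled a second time; the median of all tested genes over 8 libraries became 0.17, and 14 carriers were higher and 1 lower (all tested genes 1169 and 552). The centred form, written after that result was seen, gave a median of 0.00 for all tested genes and 10 higher and 1 lower carriers (639 and 795). The carriers it added to the calls were Slc25a10, Slc25a34, Slc25a39 and Slc25a42. Both called 0 genes over 10 libraries.

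The median log2 fold change of the carriers stayed above 0 in each alternative run, from 0.03 to 0.20 over 10 libraries and from 0.11 to 0.31 over 8. Some of these ends came from settings that moved all genes. The 0.03 came with library size alone, where the median of all tested genes was -0.06. The 0.20 and 0.31 came with the adjustment that was not centred, where that median was 0.14 and 0.17. Of the named carriers' log2 fold changes over 8 libraries, 76 of 442 values under alternatives crossed the threshold, 55 losing the call and 21 gaining it, and 0 called values reversed. Over 10 libraries 1 of 494 values crossed it. The sign changed in 14 of the 442 values over 8 libraries and in 13 of the 494 over 10.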
